A study of Mus musculus with 2 samples.

Results

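Csmd1, Csmd2 and Csmd3 are the 3 CUB and Sushi multiple domains genes of the mouse, and the peaks over their exons were taken from a Prrc2a RIP-seq experiment in whole brain. A peak belonged to them when at least 1 bp of it overlapped an exon of any of their transcripts (GENCODE release M21, mm10). This held for 158 of 18129 peaks in replicate 1 and for 111 of 18671 peaks in replicate 2. The genes were chosen by these same peaks, since they had been noticed for their large number of peaks in both lists. Counts and fold enrichments over their exons are therefore given as a description, with no test.

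CSMD proteins are very large transmembrane proteins whose extracellular part is built from alternating CUB and Sushi domains, followed by a long run of Sushi domains, a membrane-spanning stretch and a short cytoplasmic tail. Sushi domains, also called complement control protein repeats, are the building blocks of many regulators of the complement cascade, and CSMD1 is known as an inhibitor of complement that is abundant in neurons. The genes are expressed mainly in the nervous system, and CSMD1 is a known locus of genetic association with schizophrenia.

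RIP-seq sequences the RNA that comes down with a protein, here with an antibody against Prrc2a, a large cytoplasmic protein that was studied as a reader of N6-methyladenosine in RNA. The only condition was whole brain of wild-type male C57BL/6J mice aged 4 weeks, in 2 replicates, and the question was which RNAs Prrc2a binds there. The protocol describes 3 brains, without saying which brain went into which replicate, a preclearing step with goat IgG, trimming of the RNA with micrococcal nuclease and depletion of rRNA. There was no second genotype, treatment or antibody, so no group could be compared with another.

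For each peak the lists gave a start, an end and a fold enrichment. The last was read as the linear ratio of the immunoprecipitate over its control or background. The methods do not say which control was used for these peaks, if any. The lists held no strand, no summit, no p-value and no read totals. The depth behind a peak is thus unknown, and whether an exon lacked a peak for want of binding or for want of reads cannot be known from them. Nor do the lists measure expression, so that the brain label could not be checked against marker levels. Of 4 neuronal, 4 astrocytic, 4 oligodendroglial and 4 microglial marker genes, only the microglial gene Tmem119 had an exonic peak found in both replicates. Among all protein-coding genes, 12.0% had such a peak. The oligodendroglial gene Mbp had 2 exonic peaks in each list, but at places that did not overlap. Replicate 1 differed from replicate 2 over the whole lists, as 30.3% of its peaks lay outside every annotated exon, against 11.3% in replicate 2.

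The exons whose weaker replicate was most enriched are shown first, 1 for each gene, because they carried the highest enrichment that both replicates held. They are written 5′ to 3′ on the transcript strand from the GRCm38 (mm10) sequence of RefSeq, with each GGAC in capitals. GGAC is a common form of the sequence around N6-methyladenosine. Csmd1 exon 52 lies at chr8:15945005-15945178 on the minus strand, Csmd2 exon 60 at chr4:128546541-128546714 on the plus strand and Csmd3 exon 18 at chr15:47976866-47977053 on the minus strand, and all of them are coding.
Csmd1 exon 52: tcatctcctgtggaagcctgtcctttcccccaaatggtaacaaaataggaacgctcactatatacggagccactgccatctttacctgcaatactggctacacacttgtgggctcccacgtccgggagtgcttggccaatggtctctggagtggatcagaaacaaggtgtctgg
Csmd2 exon 60: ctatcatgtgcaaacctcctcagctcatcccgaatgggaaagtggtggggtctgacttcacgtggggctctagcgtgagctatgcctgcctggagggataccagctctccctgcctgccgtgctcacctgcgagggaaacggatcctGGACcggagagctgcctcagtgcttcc
Csmd3 exon 18: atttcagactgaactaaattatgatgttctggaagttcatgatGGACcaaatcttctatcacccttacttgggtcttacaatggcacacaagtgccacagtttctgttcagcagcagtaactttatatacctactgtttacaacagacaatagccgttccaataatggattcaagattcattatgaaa

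Fold enrichment over Csmd1 exon 52 was 5.22 in replicate 1 and 4.60 in replicate 2. The values were 4.09 and 5.02 for Csmd2 exon 60, and 6.71 and 3.64 for Csmd3 exon 18. The Csmd1 exon held no GGAC and the other 2 exons held 1 each.

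The next exons occupy the same place in the aligned coding sequences of the 3 genes and were under a peak in both replicates of every gene. Among such exons, the set printed here had the highest mean fold enrichment. The Csmd1 exon lies at chr8:16071284-16071487 (minus strand), the Csmd2 exon at chr4:128473931-128474134 (plus strand) and the Csmd3 exon at chr15:47753715-47753918 (minus strand). Each was 204 bases long and none held GGAC.
Csmd1 exon 34: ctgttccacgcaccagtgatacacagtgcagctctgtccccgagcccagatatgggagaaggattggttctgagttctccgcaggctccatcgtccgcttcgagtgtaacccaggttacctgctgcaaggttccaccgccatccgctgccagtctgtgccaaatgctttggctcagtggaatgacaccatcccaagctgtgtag
Csmd2 exon 34: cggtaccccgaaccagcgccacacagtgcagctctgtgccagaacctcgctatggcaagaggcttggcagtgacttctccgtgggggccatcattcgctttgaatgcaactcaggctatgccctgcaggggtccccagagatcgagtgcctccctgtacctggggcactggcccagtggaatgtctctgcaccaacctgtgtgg
Csmd3 exon 35: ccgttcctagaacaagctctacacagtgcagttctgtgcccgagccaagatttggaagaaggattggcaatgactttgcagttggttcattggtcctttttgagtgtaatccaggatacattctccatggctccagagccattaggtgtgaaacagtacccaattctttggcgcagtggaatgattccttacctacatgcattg

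Fold enrichment over these exons was 3.05 in replicate 1 and 5.02 in replicate 2 for Csmd1, 3.90 and 4.94 for Csmd2, and 4.38 and 3.41 for Csmd3. Replicate 2 was the higher list for Csmd1 and Csmd2 and the lower for Csmd3.

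A further matched set shows GGAC at different places of the same exon. It was the most enriched of the matched exons that had a peak in both replicates and at least 1 GGAC in every gene. The exons lie at chr8:16231244-16231438 (minus strand), chr4:128372481-128372675 (plus strand) and chr15:48001467-48001661 (minus strand), and each was 195 bases long.
Csmd1 exon 15: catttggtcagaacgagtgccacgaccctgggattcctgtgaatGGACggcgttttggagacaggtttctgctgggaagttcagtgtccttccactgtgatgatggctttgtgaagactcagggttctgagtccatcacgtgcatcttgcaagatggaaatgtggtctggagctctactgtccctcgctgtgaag
Csmd2 exon 15: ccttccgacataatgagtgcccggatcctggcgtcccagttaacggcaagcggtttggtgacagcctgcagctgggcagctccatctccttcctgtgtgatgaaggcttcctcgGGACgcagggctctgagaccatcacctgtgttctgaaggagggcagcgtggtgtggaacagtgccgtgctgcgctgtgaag
Csmd3 exon 16: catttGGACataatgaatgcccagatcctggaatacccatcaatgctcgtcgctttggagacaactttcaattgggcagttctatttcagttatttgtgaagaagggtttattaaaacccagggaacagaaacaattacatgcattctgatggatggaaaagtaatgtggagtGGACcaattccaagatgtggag

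Here the fold enrichment was 2.75 and 6.39 in Csmd1, 2.02 and 2.46 in Csmd2, and 4.95 and 2.83 in Csmd3, for replicates 1 and 2. The order of the replicates again was not the same in every gene.

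The last sequence is an intronic peak, because Csmd1 and Csmd2 had many of them in a single replicate. It is the peak of at most 300 bases with the highest fold enrichment, 6.10 in replicate 1, and it lies in intron 2 of Csmd1 at chr8:17164298-17164532, written on the minus strand as the gene is. It was 235 bp wide and held no GGAC.
Csmd1 intron 2 peak: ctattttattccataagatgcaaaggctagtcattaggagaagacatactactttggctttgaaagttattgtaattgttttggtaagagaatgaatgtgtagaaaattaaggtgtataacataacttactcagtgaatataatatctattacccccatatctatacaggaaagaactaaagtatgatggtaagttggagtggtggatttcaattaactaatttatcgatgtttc

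Csmd1 (ENSMUSG00000060924) covers chr8:15892537-17535586 on the minus strand, a span of 1.64 Mb. Its main transcript, the one with the longest coding sequence (CDS), has 70 exons and 10692 coding bases. There were 58 exonic peaks in replicate 1 and 58 in replicate 2. Of the replicate 1 peaks, 51 overlapped a replicate 2 peak by at least 1 bp and are called shared, which is 87.9% of either list's Csmd1 peaks. Over all exonic peaks of protein-coding genes, 61.3% in replicate 1 and 47.9% in replicate 2 were shared. Peaks covered 82.5% of the Csmd1 CDS in replicate 1 and 83.6% in replicate 2, a mean of 83.1% ± 0.794 (SD, n = 2), and 73.8% was covered in both. The coverage of Csmd1 was thus nearly equal in the replicates.

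Csmd2 (ENSMUSG00000028804) covers chr4:127987857-128567656 on the plus strand, 0.580 Mb, with 71 exons and 10833 coding bases. It had 47 exonic peaks in replicate 1 and 20 in replicate 2, of which 19 were shared, or 40.4% of the replicate 1 peaks and 95.0% of the replicate 2 peaks. The covered share of the CDS was 65.9% in replicate 1 and 29.4% in replicate 2 (mean 47.7% ± 25.8, SD, n = 2). Nearly all replicate 2 peaks had a counterpart, while most replicate 1 peaks did not.

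Csmd3 (ENSMUSG00000022311) covers chr15:47580637-48792063 on the minus strand, 1.21 Mb, with 71 exons and 11121 coding bases. It had 53 exonic peaks in replicate 1 and 33 in replicate 2, and 27 were shared, which is 50.9% and 81.8% of the respective lists. Coverage of the CDS was 77.0% and 46.6% (mean 61.8% ± 21.5, SD, n = 2). Coverage of Csmd3 was above that of Csmd2 and below that of Csmd1 in each replicate. The difference between the replicates, which are the same libraries for every gene, was larger than that between Csmd2 and Csmd3 within either, and the order was not tested.

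For the genes together, 97 peaks were shared. They made up 61.4% of the 158 exonic peaks of replicate 1, near the 61.3% of all exonic peaks, and 87.4% of the 111 peaks of replicate 2, against 47.9%. The rule used the same overlap, so these shares are a description. Among all protein-coding genes, 12.0% had at least 1 shared exonic peak, which all 3 Csmd genes did. By the main transcripts alone, 147 of 158 and 106 of 111 peaks overlapped the CDS and no untranslated region. Every exon of the main transcripts holds coding bases except exon 71 of Csmd2, and the same share over all exonic peaks is not given here. No exonic Csmd peak overlapped an exon of another gene.

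**Figure D1:**
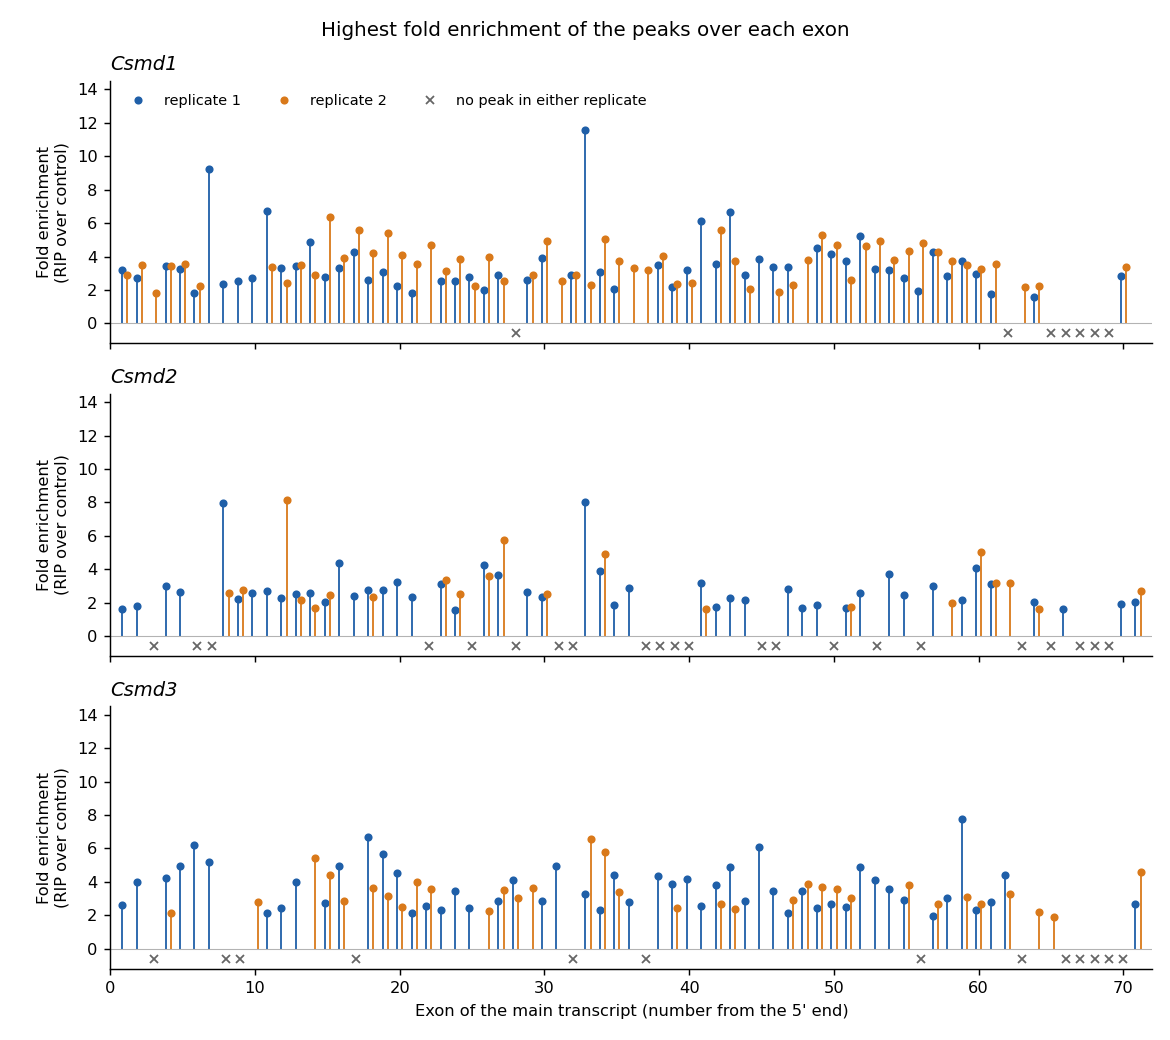
Highest fold enrichment of the peaks over each exon of the main transcript of Csmd1, Csmd2 and Csmd3, by exon number from the 5′ end. Replicate 1 is blue and replicate 2 orange, and grey crosses are exons with no peak in either list. The control named on the axis is not described in the methods. Csmd1 has points from both replicates along nearly the whole transcript, Csmd2 has many exons with a replicate 1 point alone, and exons 67 to 69 of Csmd1 and Csmd2 and 68 to 70 of Csmd3 lack peaks in either list.

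Fold enrichment was modest for most of these peaks. For Csmd1 it ran from 1.56 to 11.5 in replicate 1 (median 3.14) and from 1.83 to 6.39 in replicate 2 (median 3.51). For Csmd2 the medians were 2.52 and 2.56, and the highest values were 8.02 and 8.12. For Csmd3 the medians were 3.43 and 3.18, with highest values of 7.79 and 6.55. Over all exonic peaks of protein-coding genes the medians were 2.35 and 2.50. The medians of all 3 genes lay above these values in both replicates, those of Csmd2 by the least. Against the medians of all peaks, intronic ones included (2.84 and 2.63), Csmd2 lay below in both.

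The tallest peaks were not the same in the replicates. The highest Csmd1 value, 11.5 over exon 33 in replicate 1, stood against 2.32 in replicate 2. The matched Csmd2 exon, also number 33, had 8.02 in replicate 1 and no replicate 2 peak, and the matched Csmd3 exon, number 34, had 2.33 and 5.77. Csmd1 exon 7 had 9.21 in replicate 1 alone. Csmd2 exon 8 had 7.94 and 2.59, and Csmd2 exon 12 had 2.28 and 8.12. Single tall peaks of these genes were thus mostly tall in 1 list.

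Across the 97 shared peaks, replicate 2 was higher in 61 and replicate 1 in 36, and the median log2 ratio of replicate 1 over replicate 2 was -0.19 with an SD of 0.69. For all 8372 shared peaks of the lists the median was -0.25 with an SD of 0.53. The values differed by more than 2-fold in 11 of the 97 peaks, and in 684 of all 8372 shared peaks. As a description across peaks, which share their library and are not independent replicates, Spearman's rho between the replicates' values was 0.12 over the Csmd peaks and 0.58 over all shared peaks. By gene it was 0.16 over 51 peaks of Csmd1, 0.39 over 19 of Csmd2 and -0.28 over 27 of Csmd3. A peak that was tall in one list was not in general tall in the other. A value of 4 or more in both lists was reached by 6 of the 97 shared peaks, 5 in Csmd1 and 1 in Csmd2. Over all shared peaks, 722 of 8372 reached it.

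**Figure D2:**
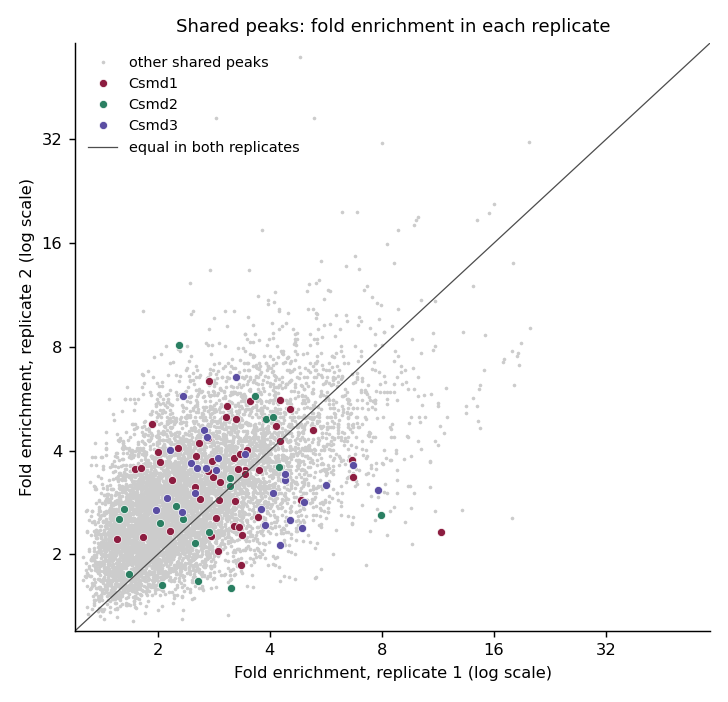
Fold enrichment of each shared peak in replicate 1 (x axis) and replicate 2 (y axis), both on log scales, for Csmd1, Csmd2, Csmd3 and all other shared peaks (grey); the line marks equal values. The Csmd points lie within the cloud of the other peaks, and the highest replicate 1 value, 11.5, pairs with 2.32 in replicate 2.

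Each peak described here overlapped an exon by the rule, and its extent around that exon was then measured. The narrowest exonic peak was 200 bp and the median width in replicate 1 was 457.5 bp for Csmd1, 442 bp for Csmd2 and 435 bp for Csmd3, while the median exon length was 174 bases in each gene. Most Csmd peaks were thus wider than the exon under them, apart from those in the long last exons and a few others, and the median peak was 40.1% exonic in replicate 1 and 40.0% in replicate 2. Over all exonic peaks of protein-coding genes the median peak was 100% exonic in either list. In replicate 1, 141 of 158 peaks covered a whole exon, and so did 95 of 111 in replicate 2. The same share over all exonic peaks is not given here.

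Peaks over a single whole internal exon reached a median of 142 bp past each end of it in replicate 1 (138 peaks, middle 50% from 125 to 159) and 139.5 bp in replicate 2 (94 peaks). The same measure over all protein-coding genes was 115 bp (2488 peaks) and 122 bp (3674 peaks). Since intron sequence made up most of such a peak, the share of a Csmd peak that is spliced mRNA cannot be read from its width. At the edge of the rule, the members with the fewest exonic bases had 34 in Csmd3 (replicate 2, fold enrichment 3.64) and 39 in Csmd2 (replicate 1, 4.39). The nearest peak outside an exon began 230 bp from it, in Csmd1 (replicate 1, 4.74).

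By exon, Csmd1 had a peak in both replicates over 50 of 70 exons and none in either over 7. Csmd2 had both over 19 of 71 and none over 22, and Csmd3 had both over 27 of 71 and none over 13. Exons under a peak in both lists had a median length of 187 bases over the 3 genes, against 113 bases for exons without any. Among internal exons of at most 100 bases, 4 of 27 had a peak in both replicates (14.8%). The share was 28.8% of 66 exons of 101 to 150 bases, 60.0% of 90 exons of 151 to 200 bases and 65.2% of 23 longer exons. In replicate 1, all 23 of the longest exons lay under a peak.

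A rise with exon length was measured in other genes too. In the 73 other protein-coding genes with at least 10 shared exonic peaks, the share of internal exons with a peak in both replicates was 7.69%, 19.3%, 32.7% and 70.2% in the same classes. The Csmd genes had the higher share in the first 3 classes and the lower one in the last. Peaks are at least 200 bp wide and can cover neighbouring exons, and the part of this in the result was not tested.

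**Figure D3:**
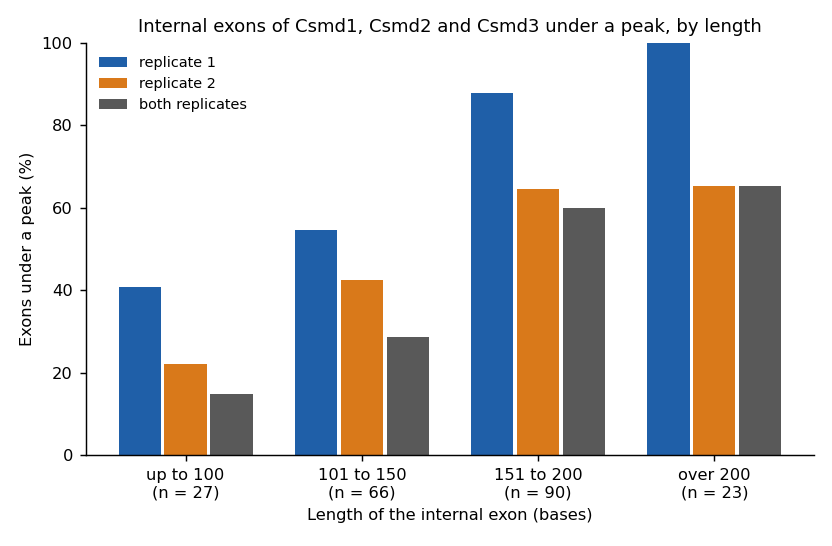
Share of the internal exons of Csmd1, Csmd2 and Csmd3 that lay under a peak (y axis, percent), by exon length in bases (x axis, with the number of exons), in replicate 1, replicate 2 and both. The share in both replicates rises from 14.8% of the shortest class to 65.2% of the longest, and replicate 1 covers every exon over 200 bases.

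In each gene a run of exons near the 3′ end of the coding part lacked peaks. In Csmd1, exons 65 to 69 had none in either replicate, although exon 64 and the last exon, number 70, had peaks in both. In Csmd2, exons 65, 67, 68 and 69 had none and exon 66 had a replicate 1 peak alone (fold enrichment 1.64). In Csmd3, exons 66 to 70 had none. These exons were short in each gene (45 to 162 bases in Csmd1). The last exon was under peaks in both replicates of every gene. Its most enriched overlapping peaks had 2.82 and 3.35 in Csmd1, 1.62 and 2.71 in Csmd2, and 2.67 and 4.59 in Csmd3. Another replicate 1 peak in the Csmd2 exon, with 2.04, overlapped no replicate 2 peak. In Csmd1 and Csmd3 the last exon holds the end of the CDS, but in Csmd2 it is wholly 3′ UTR. The exon with the end of the Csmd2 CDS, number 70, had a replicate 1 peak alone (1.91).

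Coverage was otherwise spread over the whole CDS. In Csmd1, peaks covered 87.9%, 87.1% and 72.5% of the 5′, middle and 3′ parts of equal length in replicate 1, and 86.1%, 84.5% and 80.3% in replicate 2. In Csmd2 the shares were 72.8%, 64.0% and 61.0% in replicate 1 and 31.8%, 31.1% and 25.5% in replicate 2. In Csmd3 they were 76.8%, 87.0% and 67.1%, and 48.6%, 44.9% and 46.3%. The 3′ part was the least covered in both replicates of Csmd1 and Csmd2, but not in replicate 2 of Csmd3.

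The genes are paralogs with the same exon layout, and so their exons could be compared place by place. Aligned coding bases were 66.6% identical between Csmd1 and Csmd2, 64.0% between Csmd1 and Csmd3 and 61.0% between Csmd2 and Csmd3. By this alignment, 68 exons matched across all 3 genes, 64 of them with the same coding length. Peaks in both replicates were found over 7 of the 68 in all 3 genes, over 27 in a pair of the genes, over 19 in a single gene and over 15 in none.

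The 7 exons with a peak in both replicates of every gene were exons 14, 15, 18, 26, 27, 34 and 61 of Csmd1. Their coding lengths ran from 174 to 327 bases. Of the 18 matched Csmd2 exons with a peak in both replicates, 15 (83.3%) also had this in Csmd1, and of the 27 of Csmd3, 25 (92.6%) did. Csmd1 itself had such peaks over 49 of the 68 matched exons. Csmd2 and Csmd3 had 8 in common, or 29.6% of the Csmd3 exons. No peak was found in any gene or replicate over 3 matched exons, numbers 67, 68 and 69 of Csmd1.

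GGAC was present in 61 of the 97 shared Csmd peaks (62.9%), counting only their exonic bases on the transcript strand, against 77.8% of 7317 shared exonic peaks of all protein-coding genes. The exonic part of a Csmd peak was shorter, with a median of 188 bases against 376. Per kb of exonic sequence, the Csmd peaks held 5.0 GGAC and all shared peaks 4.6. Counting only the exonic bases no more than 50 bp from the midpoint, 35.1% of the Csmd peaks held the motif, as did 34.7% of all shared peaks. The lower share of Csmd peaks with GGAC was thus not seen per kb or in the window of fixed size. By gene, GGAC was in 74.5% of 51 shared peaks of Csmd1, 47.4% of 19 of Csmd2 and 51.9% of 27 of Csmd3. Per kb these peaks held 5.21, 5.21 and 4.35 GGAC, the Csmd3 value being below the 4.64 of all shared peaks. In the window the shares were 37.3%, 26.3% and 37.0%, of which the Csmd2 share was below that of all shared peaks. For the longer GGACT, which is counted within GGAC, the shares were 18.6% of Csmd peaks and 42.9% of all shared peaks. These GGACT shares were not corrected for the shorter exonic part of the Csmd peaks.

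Among exons, GGAC was present in 62 of the 96 with a peak in both replicates (64.6%) and in 16 of the 42 with none (38.1%). Per kb, the exons with peaks held 4.67 GGAC and those without 5.38. The set of exons 34, 34 and 35 printed above had peaks in both replicates of every gene and no GGAC at all. GGAC was present in all 3 genes in 16 matched exons, of which 3 had a peak in both replicates of every gene.

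Outside exons the replicates differed. Csmd1 had 61 intronic peaks in replicate 1 and 0 in replicate 2, Csmd2 had 24 and 1, and Csmd3 had 0 and 0. None of them was shared. Of all protein-coding genes, 2.93% had an intronic peak in replicate 1 and 2.57% in replicate 2. Per Mb of intron, replicate 1 had 37.6 peaks in Csmd1, 42.6 in Csmd2 and 0 in Csmd3, against 4.07 over the introns of all protein-coding genes (1.28 in replicate 2). Csmd3 thus had no intronic peak in 1.19 Mb of intron, in the same list in which its exons had 53 peaks.

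The intronic peaks of Csmd1 all lay in its first 3 introns: 18 in intron 1 (318 kb), 27 in intron 2 (189 kb) and 16 in intron 3 (317 kb). Introns 4 to 69, with 0.805 Mb in all, had 0, among them intron 5 of 197 kb, which is longer than intron 2. The peaks lay between 2.80 and 695 kb from the start of the gene. The densest stretch of 100 kb held 27 of them, all in intron 2. In Csmd2 they were spread over 9 introns between 1.29 and 443 kb from the start, with 6 in intron 1 and 6 in intron 5. Csmd1 ranked 9 among all protein-coding genes by intronic peaks in replicate 1, a list that Rbfox1, a neuronal splicing factor gene, led with 171 in replicate 1 and 8 in replicate 2. Every gene ranked ahead of Csmd1 had more intronic peaks per Mb of intron in replicate 1. Their rates ran from 64.6 in Ntm to 264 in Grin2a, against 37.6 in Csmd1.

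Intronic peaks were narrower and more enriched than the exonic ones of the same genes. Their median width in replicate 1 was 292 bp in Csmd1 and 268 bp in Csmd2, and the median fold enrichment was 4.35 and 4.26, against 3.14 and 2.52 over exons. Intronic peaks of all protein-coding genes in replicate 1 were near these values. Their median width was 298 bp and their median fold enrichment 4.16, against 2.35 for exonic peaks. Many of the Csmd intronic peaks carried exactly the same value as other peaks: 69 of the 85 had a fold enrichment that at least 10 peaks of the list had, against 12 of the 158 exonic ones. Over the whole replicate 1 list, 64.4% of intronic peaks of protein-coding genes and 9.94% of exonic ones were tied in this way. These values move with the intronic result, and their part in it was not tested.

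The sequence under the intronic peaks lay mostly outside masked repeats. Repeats masked in the reference made up a median of 10.0% of a Csmd1 peak and 8.32% of a Csmd2 peak, and at least 50% of the bases in 4 of 61 and 1 of 24. Only unique alignments had been kept before peaks were called, which limits what could be seen in repeats. GGAC on the transcript strand was present in 35 of 61 (57.4%) and 16 of 24 (66.7%). Neither share is given here for other intronic peaks, so neither can be read as a trait of these genes. Of the Csmd1 peaks, 8 overlapped an exon of NCBI RefSeq that GENCODE M21 does not hold, and none of the Csmd2 peaks did. A further replicate 1 peak in the Csmd1 span, with a fold enrichment of 3.22, lay over an exon of 3110080E11Rik, an unverified transcript model, and was not counted.

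**Figure D4:**
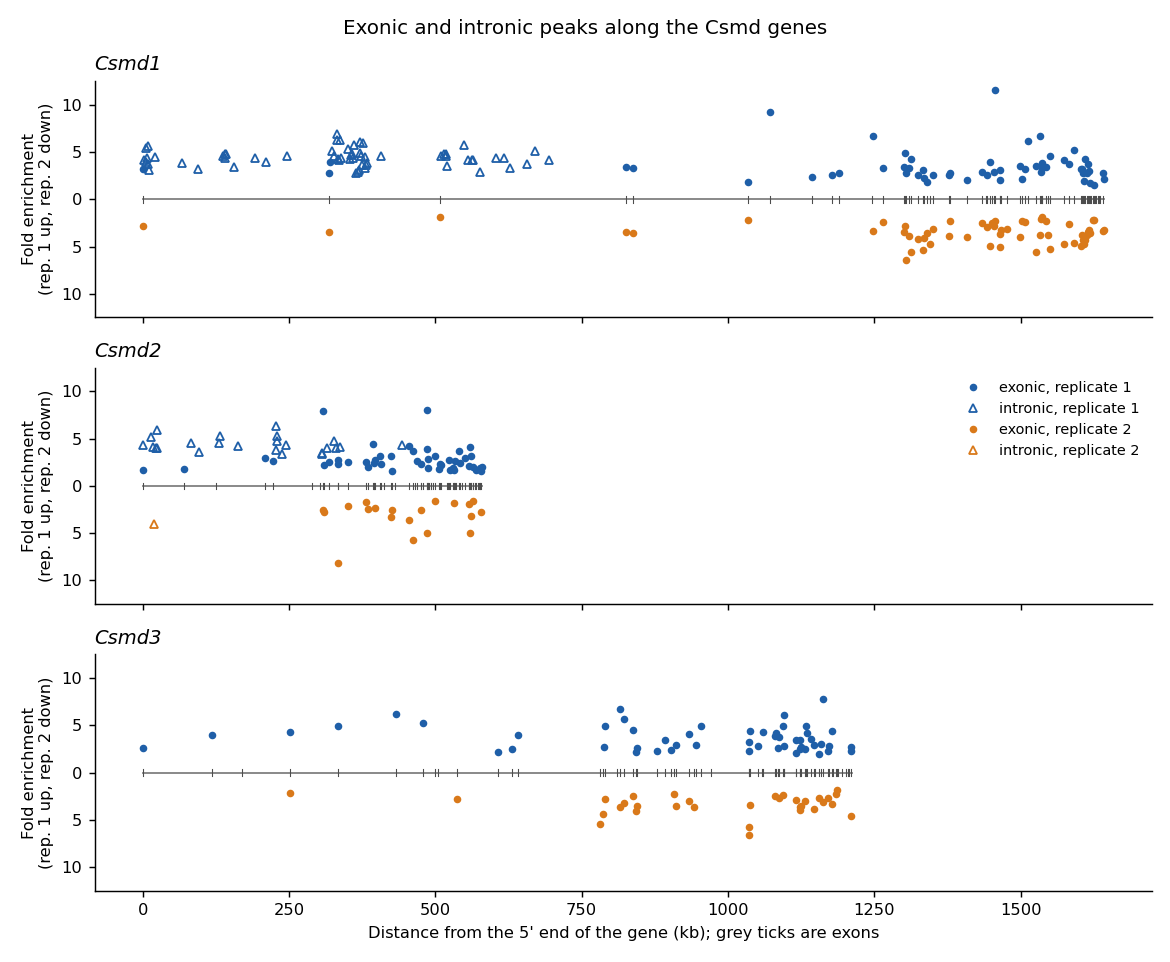
Peaks along Csmd1, Csmd2 and Csmd3 by distance from the 5′ end of the gene in kb (x axis). Fold enrichment of replicate 1 is drawn upward and that of replicate 2 downward. Filled circles are exonic peaks, open triangles intronic peaks and grey ticks exons. The 61 intronic peaks of Csmd1 and 24 of Csmd2 are all in replicate 1, apart from 1 Csmd2 peak in replicate 2, and Csmd3 has none.

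By number of shared exonic peaks, Csmd1 ranked 1, Csmd3 ranked 4 and Csmd2 ranked 9 among 2629 protein-coding genes with any. Between them were Fras1 (38 shared peaks), an extracellular matrix protein, Mdn1 (32), a factor of ribosome assembly, Fbn2 (23), a fibrillin, Lrp1b (23), a lipoprotein receptor-related protein, Fat3 (21), an atypical cadherin, and Notch2 (20). Per kb of exon, which sets the count against length, Csmd1 ranked 7, Csmd3 ranked 41 and Csmd2 ranked 101. Csmd1 ranked 1 by exonic peaks in each replicate alone. Csmd2 ranked 7 in replicate 1 and 42 in replicate 2.

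Among 153 genes with a CDS of at least 9000 bases, the median covered share was 8.04% in replicate 1 and 12.9% in replicate 2, and 86 had a shared peak. By covered share Csmd1 ranked 6 and 5, Csmd3 ranked 11 and 24, and Csmd2 ranked 17 and 48 in replicates 1 and 2. The genes with the most similar pair of shares were then found by the sum of both absolute differences in percentage points. Closest to Csmd1 was Srcap, a chromatin remodelling ATPase (3.46 points), then Gm42715 (5.55), a gene model that overlaps Srcap on the same strand, and Dchs1, a giant cadherin (6.52). Closest to Csmd2 were Zfhx4 (0.672), Lrp1b (7.59) and Rev3l (8.16). Closest to Csmd3 were Zfhx3 (2.93), Pclo, a presynaptic scaffold (10.7), and Kmt2d (15.7). Srcap reached this coverage with 12 shared peaks and Zfhx4 with 4, against 51 in Csmd1 and 19 in Csmd2.

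**Figure D5:**
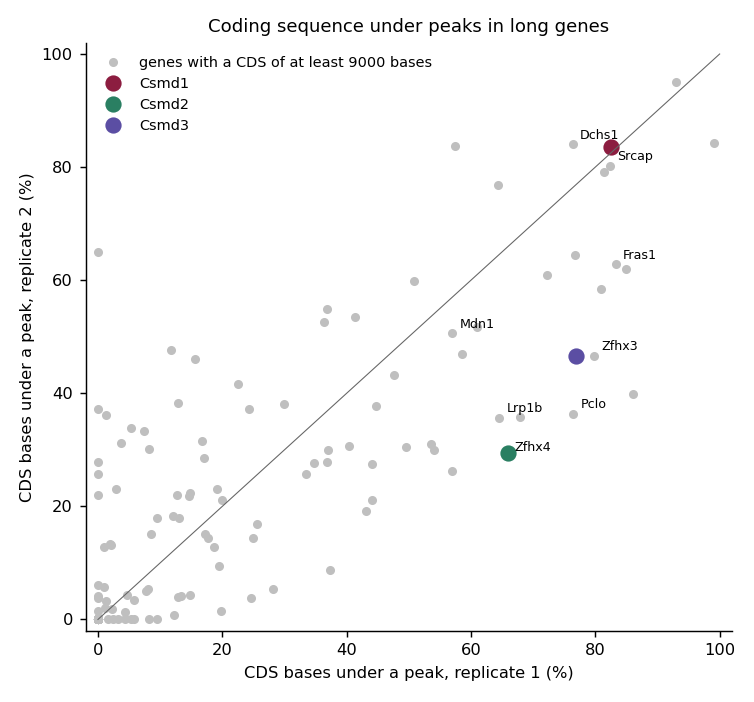
Share of coding bases under peaks in replicate 1 (x axis, percent) and replicate 2 (y axis, percent) for each of the 153 genes with a CDS of at least 9000 bases; the line marks equal shares, and Csmd1, Csmd2 and Csmd3 are coloured. Csmd1 lies on the line at 82.5% and 83.6%, while Csmd3 and Csmd2 lie below it with 77.0% and 46.6%, and 65.9% and 29.4%.

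Giant extracellular proteins with other domains often had shared peaks too. Of 16 such genes listed for comparison, 11 had at least 1 and the median was 5.5 shared peaks. Long genes often had them in any case, as did 86 of the 153 genes with a CDS of at least 9000 bases. Of all protein-coding genes, 12.0% had any. The largest counts were those of Fras1 (38), Lrp1b (23), Fat3 (21), Fat4 (14) and Dchs1 (12), followed by Fat1 (9). In Fat4, a giant cadherin, peaks covered 99.2% of the CDS in replicate 1 and 84.3% in replicate 2, with only 16 and 17 exonic peaks. Frem3 and Lrp2 had no exonic peak in either list.

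The complement cascade itself had no shared peak. Of 23 cascade genes in the annotation, from the C1q chains to the terminal components, 0 had a shared exonic peak and 1, the protease gene Masp1, had a replicate 2 peak. Of 22 complement receptor and regulator genes, 2 had a shared peak, or 9.09%, near the 12.0% of all protein-coding genes. These were Cr1l, a membrane regulator of C3 activation (2.42 and 2.41), and Susd4, a Sushi domain protein (1.63 and 1.55). The receptors C3ar1, C5ar1 and Itgam and the regulators Cd55 and Serping1 had no exonic peak. The lists hold no expression level, and whether these RNAs were present in the lysate was not tested.

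Of 37 other genes with CUB or Sushi domains, 10 had a shared exonic peak (27.0%, against 12.0%). Lrp12 had 5, in the highest replicate 1 peak 1.96, and Pdgfc, a growth factor with a CUB domain, had 4 with values up to 3.82 in replicate 1 and 4.24 in replicate 2. Nrp2 (4) and Nrp1 (2) encode semaphorin receptors. Neto1 (3), an auxiliary subunit of kainate receptors, reached 3.03 and 3.70, and Kremen1 (3), a receptor of the Wnt inhibitor Dickkopf, reached 2.28 and 3.98. Sez6l had 2, and Susd5, the perineuronal proteoglycan gene Ncan and the protease gene Tll1 had 1 each. The highest count among the 10 genes was 5, against 19 to 51 in the Csmd genes. Sez6, a close relative of Sez6l, and Cubn, which is built from a long row of CUB domains, had no exonic peak.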

How the data were processed

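Prrc2a RIP-seq was carried out on whole brain of wild-type mice in 2 replicates of 1 condition. Before depositing, the authors removed adapters, mapped reads to mm10 (TopHat), retained unique alignments of mapping quality 20 or more, and ran MACS2 on every replicate alone at an FDR of 0.05. The submitters' processing notes list TopHat2 2.0.9 and MACS2 2.0.10, other versions than the methods of the study give. The values deposited are peak positions and a fold enrichment, read as the linear ratio of the immunoprecipitate over its control or background. Which control was used for these peaks, if any, is not stated. Read totals were not given in the sources used here, so depth and counting error are unknown, and the spread between replicates served as the error.

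From these lists, overlaps with GENCODE M21 exons were computed in Python 3.11.15 (numpy 2.4.6, scipy 1.17.1) with a minimum of 1 bp. Positions count both ends from 1. The main transcript was the one with the longest CDS. A peak was intronic when it lay in a Csmd span and touched no exon of any gene. Coding sequences were aligned with mafft 7.526, and exons matched when at least 80% of their coding bases were aligned both ways. Motifs were read on the transcript strand from GRCm38. Figures were drawn with matplotlib 3.10.9. All 10 simulated quantities were recovered when the functions were tested on simulated data.

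The genes named are the 3 members, listed complement, CUB and Sushi genes with a shared exonic peak, at most 6 comparison genes with values, the 3 long genes most alike in coverage to each member, and genes over a Csmd peak. Genes named for having no peak, the leading genes by shared or intronic peaks, and single exons were picked after their values were seen. The members and lists were chosen with earlier results of these data known. No test was run, since there is 1 condition. Alternatives changed the fold enrichment, the overlap, the transcripts, the exon rule, merging, the motif or the replicate.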

Additional observations from a re-analysis of the deposited data

How the results depend on the processing

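With peaks of a fold enrichment of at least 4 alone, the exonic Csmd peaks numbered 36 in replicate 1 and 27 in replicate 2, and the shared ones 6. The covered share of the CDS was then 22.5% in Csmd1, 5.07% in Csmd2 and 19.2% in Csmd3. Csmd1 ranked 5 and Csmd2 ranked 85 by shared peaks, and Csmd3 had none left to rank. Per kb of exon the ranks of Csmd1, Csmd2 and Csmd3 were 7, 101 and 41. GGAC was found in 35.1% of shared peaks within 50 bp of the midpoint and GGACT in 18.6%. Each replicate alone gave 61.4% to 62.2% with GGAC, ranks of 1 for Csmd1, 7 to 42 for Csmd2 and 4 to 5 for Csmd3, and a covered share of 82.5% to 83.6% for Csmd1, 29.4% to 65.9% for Csmd2 and 46.6% to 77.0% for Csmd3. The lower Csmd2 rank and coverage are those without replicate 1. An overlap of 50% of both peaks left 86 shared exonic peaks. Basic transcripts, the main transcript alone, the peak midpoint, merging and counting in replicate 2 left the exonic and shared exonic counts within 1.5 times of those reported. The intronic count of replicate 1 was 58 to 86 over its alternatives, and no intronic peak was shared with an overlap of 50%, with a fold enrichment of at least 4 or when counted in replicate 2, the alternatives run for it. Shared peaks cannot be counted without a replicate, so those alternatives used the exonic peaks of the other list. No paired analysis was possible because there is 1 group. Read depth is unknown and limits every statement on a missing peak.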
